A study of Mus musculus with 4 samples.

Results

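The genes described here are the mouse insulin-like growth factors (IGFs), their cell surface receptors and their secreted binding proteins. They were chosen by gene name, with no threshold on a measured value, and comprised 10 of the 54532 genes that the count tables share. Of the 10, 2 encode ligands (Igf1 and Igf2), 2 encode receptors (Igf1r and Igf2r) and 6 encode binding proteins (Igfbp2 to Igfbp7). Their RNA was measured by poly-A sequencing in primary microglia, the resident macrophages of the brain, grown from the cortex of male CD1 mouse pups a few days old. Cultures received 1 µM EGCG (epigallocatechin gallate, a flavan-3-ol of green tea) or the DMSO vehicle for 24 h, with 2 biological replicates per group and therefore 4 libraries. Both groups were kept without serum in a medium holding insulin, transferrin, selenium, IL-34, TGFβ2, GM-CSF and cholesterol. The microglia were what remained attached after trypsin had lifted the astrocyte layer from mixed glial cultures, so other attached cells could also have contributed RNA.

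IGF-1 and IGF-2 are small secreted proteins related to insulin, and both activate the receptor tyrosine kinase encoded by Igf1r, which signals to growth and survival through the PI3K, AKT and ERK routes. The product of Igf2r, also known as the cation-independent mannose 6-phosphate receptor, removes IGF-2 from the cell surface and carries lysosomal enzymes. The binding proteins hold IGFs in the extracellular space and either prolong or block their access to the receptor. In the brain, microglia are a known source of IGF-1, which supports neurons and myelin-forming cells.

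Between 33805071 and 54970300 reads were counted per library, and the deepest library, EGCG replicate 2, held 1.51 times the counts of its vehicle counterpart. Levels are given below as CPM (counts per 1000000, scaled to library sizes normalised by the TMM method) when 1 gene is compared between libraries. Where genes are compared with each other, levels are in TPM (transcripts per 1000000), for which counts were divided by gene length before scaling to a sum of 1000000 per library. Of 14 microglia markers, 13 were above 3 counts in at least 1 library, among them Csf1r and Cx3cr1, whereas Siglech had 0 counts in both libraries of replicate 1 and 3 and 2 in those of replicate 2. The summed level of the list was 6876 and 7622 CPM in Vehicle and EGCG replicate 1, and 12307 and 11753 CPM in Vehicle and EGCG replicate 2. The libraries also held RNA of genes that mark other cells. EGCG replicate 1 stood apart in most of the stromal markers and in part of the mural and astrocyte markers. It did not in the oligodendrocyte lineage, endothelial, neuronal and choroid plexus sums given below, although part of the endothelial markers were lower with EGCG in replicate 1. Col1a1, a fibrillar collagen gene of stromal cells, had 3962 counts with vehicle and 4 with EGCG in replicate 1. In replicate 2 it had 1344 and 2040. In bulk RNA of this kind, fewer cells of a type and less RNA per cell cannot be told apart.

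The sequences just upstream of 5 of the genes are shown first, because the values below turn on these members. Igf1r was lower with EGCG in both replicates. Igfbp2 with Igfbp5, and Igfbp6 with Igfbp7, are pairs whose members had their highest and lowest levels in the same libraries. Each sequence is the 250 bases before the start site in RefSeq (GRCm38.p6), which can differ from the gene start in the count tables. Each is written 5′ to 3′ on the gene's own strand. Capitals mark 4 short motifs searched on both strands: TATAAA and TTTAAA, which resemble the TATA element, GGGCGG, the core of the GC box, and CCAAT.
Igf1r, chr7:67952007-67952256, plus strand: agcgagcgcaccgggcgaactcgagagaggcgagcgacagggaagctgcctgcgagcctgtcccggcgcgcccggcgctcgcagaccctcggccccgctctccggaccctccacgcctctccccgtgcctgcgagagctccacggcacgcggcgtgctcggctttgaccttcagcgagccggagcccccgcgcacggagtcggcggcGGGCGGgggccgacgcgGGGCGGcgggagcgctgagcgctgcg
Igfbp2, chr1:72824230-72824479, plus strand: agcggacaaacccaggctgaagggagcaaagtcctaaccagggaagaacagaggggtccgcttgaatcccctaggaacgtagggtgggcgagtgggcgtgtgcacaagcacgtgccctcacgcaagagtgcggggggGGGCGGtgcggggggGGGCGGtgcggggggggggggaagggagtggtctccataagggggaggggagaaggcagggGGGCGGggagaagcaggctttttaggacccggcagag
Igfbp5, chr1:72874866-72875115, minus strand: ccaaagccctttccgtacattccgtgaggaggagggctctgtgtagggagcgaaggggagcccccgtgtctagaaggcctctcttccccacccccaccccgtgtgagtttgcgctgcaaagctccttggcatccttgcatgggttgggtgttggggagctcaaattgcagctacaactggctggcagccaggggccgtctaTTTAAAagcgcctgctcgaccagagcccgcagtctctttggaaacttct
Igfbp6, chr15:102143936-102144185, plus strand: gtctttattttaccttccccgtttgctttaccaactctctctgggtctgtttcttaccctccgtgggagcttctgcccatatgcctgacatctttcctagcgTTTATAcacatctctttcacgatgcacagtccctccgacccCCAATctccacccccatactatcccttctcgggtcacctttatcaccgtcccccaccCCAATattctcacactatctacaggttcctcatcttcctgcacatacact
Igfbp7, chr5:77408046-77408295, minus strand: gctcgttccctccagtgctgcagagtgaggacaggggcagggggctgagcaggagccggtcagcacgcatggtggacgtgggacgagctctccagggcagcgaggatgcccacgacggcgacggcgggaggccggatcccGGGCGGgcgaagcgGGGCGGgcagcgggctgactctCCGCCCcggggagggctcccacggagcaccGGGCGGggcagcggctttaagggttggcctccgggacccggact
The windows of Igfbp2 (67.2% G and C, for the first of its 2 start sites) and Igfbp7 (74.0%) held 3 and 4 copies of GGGCGG, a motif found in 32.7% of the 32851 mouse promoter windows of this length. The window before the other Igfbp2 start site (chr1:72825137-72825386, 56.4% G and C, not shown) held none of the 4 motifs. The Igf1r window held 2 copies of GGGCGG and was 77.6% G and C. The Igfbp5 window had TTTAAA (12.1% of all windows) and none of the other motifs. The window of Igfbp6 was 49.6% G and C, with 1 TATAAA (12.4% of all windows) and 2 copies of CCAAT (33.8%). In the windows shown, neither pair shared a motif of this set, and whether the members of a pair share control was not tested. A match is only a run of letters, and binding of any factor was not measured.

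The family was led by Igf1. Igf1 (ENSMUSG00000020053, GRCm38 chromosome 10, 87858265 to 87937042) was at 148 TPM with vehicle and 179 with EGCG in replicate 1, and at 249 and 253 TPM in replicate 2. Its mean of 207 TPM ranked 571 among the 13811 protein-coding genes tested, and it was the most abundant member in every library. Igfbp4 followed, with a mean of 99.4 TPM and rank 1245, and Igf1 RNA was between 1.71 and 2.28 times as abundant per length as Igfbp4 RNA. Igfbp5 was next with a mean of 50.4 TPM, below Igfbp4 in all 4 libraries. Igf2r averaged 25.3 TPM, and its order relative to Igfbp5 was not fixed, because in Vehicle replicate 2 Igf2r stood at 22.4 and Igfbp5 at 22.2 TPM. Igf1r, Igfbp7 and Igfbp2 lay close together, with means of 8.79, 8.26 and 8.08 TPM and overlapping ranges. Igfbp6 and Igfbp3 had the lowest means of the 9 members tested, 2.37 and 1.59 TPM, and their ranges overlapped as well.

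**Figure D1:**
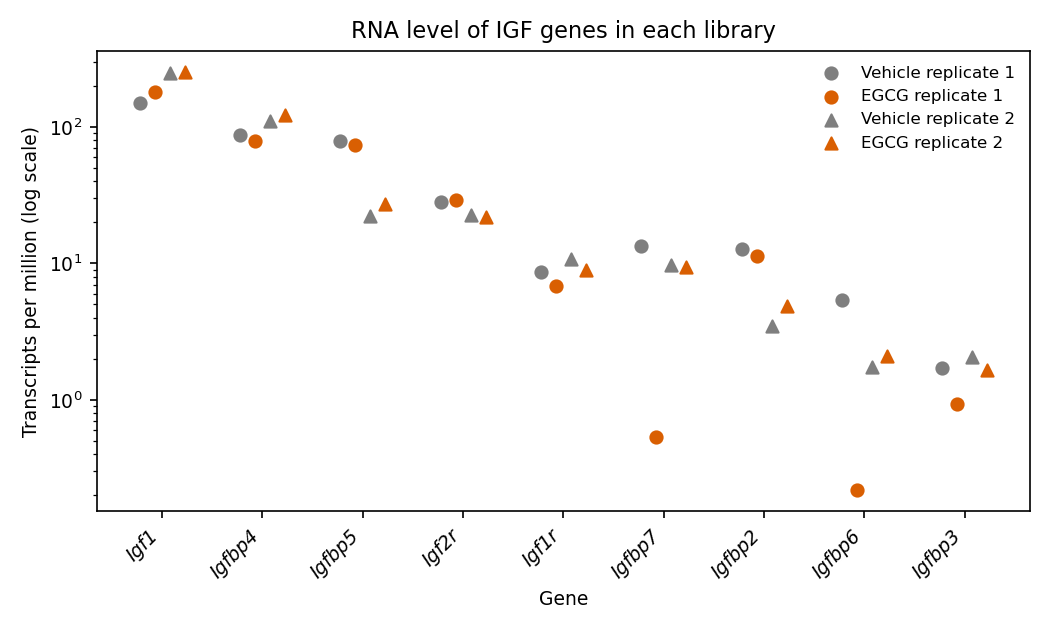
RNA level of the 9 tested IGF genes in TPM (log axis), with 1 point per library, grey for vehicle and orange for EGCG, circles for replicate 1 and triangles for replicate 2. Igf1 lay highest at 148 to 253 TPM, Igfbp5 and Igfbp2 differed more between replicates than between treatments, and Igfbp6 and Igfbp7 had 1 low library, EGCG replicate 1. Igf2, with 0 counts in replicate 2, is not drawn.

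Igf2 RNA was close to absent. Igf2 (ENSMUSG00000048583, chromosome 7, 142650766 to 142666816), an imprinted gene read mainly from the paternal copy, had 7 counts with vehicle and 2 with EGCG in replicate 1 and 0 in both libraries of replicate 2. The 9 counts fell below the minimum of 10 over the 4 libraries, so the gene was not tested, and no fold change is given. A count of 3, the limit that 0 counts allow, corresponds to 0.0818 CPM in Vehicle replicate 2 and 0.0544 in EGCG replicate 2, for counting error only. The other 9 members passed this filter.

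The effect of EGCG on the 9 genes was read from a fit of all 13811 genes, in which edgeR's quasi-likelihood method compared the groups, two-sided, with treatment as the only term. No member had an unadjusted p under 0.05, a level reached by 16 genes or 0.116% of those tested, and no member or other gene had an adjusted p under 0.1. The Wald test of DESeq2 without a block also gave 0 members at an unadjusted p under 0.05. Adjusted p was 1.00 for each of the 9 members in the edgeR test. Their median log2 fold change was 0.02, against 0.01 over all genes tested, and fold changes ranged from -1.67 to 0.16 on the log2 scale. In 3 of the 9 (Igf1r, Igfbp3 and Igfbp7) the EGCG libraries both lay below the vehicle libraries, a separation in either direction seen in 11.9% of all genes. Within the 2 replicates taken separately, 3 members were lower and 1 was higher with EGCG in both, whereas 5 went in opposite directions. Equal signs in both replicates were found in 50.5% of all genes. With 2 libraries per group, a permutation of libraries cannot reach a two-sided p below 0.333, and the p-values therefore rest on the model and cover the spread between these libraries.

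**Figure D2:**
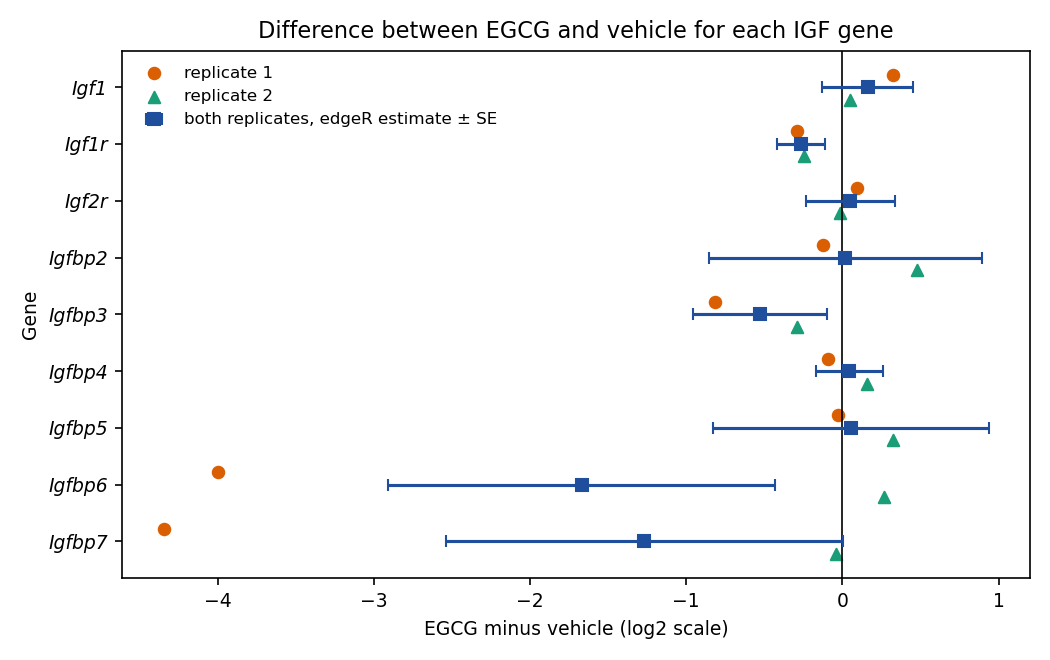
Difference between EGCG and vehicle on the log2 scale for the 9 tested genes, as edgeR's estimate from all 4 libraries with its standard error (squares and bars) and as the log2 CPM difference within replicate 1 (circles) and replicate 2 (triangles). Igf1r lay at -0.29 and -0.24 in the replicates, while Igfbp6 and Igfbp7 lay near -4 in replicate 1 and near 0 in replicate 2.

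Igf1 was modestly higher with EGCG in replicate 1 and hardly so in replicate 2. It had 18021 and 22002 counts in Vehicle and EGCG replicate 1, that is 549 and 687 CPM, and 30559 and 47485 counts in Vehicle and EGCG replicate 2, that is 834 and 861 CPM. Both libraries of replicate 2 were above both of replicate 1, so the treatment groups overlapped. The ratio of EGCG to vehicle was 1.25 in replicate 1 (95% interval for counting error 1.23 to 1.28) and 1.03 in replicate 2 (1.02 to 1.05). Across the groups, the levels were 691 ± 201 CPM in vehicle and 774 ± 123 in EGCG (SD, n = 2 each). The edgeR log2 fold change was 0.16 with a standard error of 0.29 and an unadjusted p of 0.607, and its 95% interval ran from a fold of 0.638 to 1.96. Between the vehicle libraries alone, Igf1 was 1.52 times as high in replicate 2 as in replicate 1, a wider gap than either treatment difference. With the replicate as a block, the unadjusted p of Igf1 was 0.0237 in DESeq2 (log2 fold change 0.18, adjusted p = 1.00), a level under 0.05 that 1.11% of all genes reached there, and the unadjusted p was 0.0768 in edgeR. An antisense gene, Igf1os, overlaps Igf1 and held 18 to 38 counts, too few to change these values whichever strand its reads came from.

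Igf1r was the member whose difference was most alike in the 2 replicates. The gene (ENSMUSG00000005533, chromosome 7, 67952827 to 68233668) had 1772 counts with vehicle and 1415 with EGCG in replicate 1, at 54.0 and 44.2 CPM, and 2247 and 2857 counts in replicate 2, at 61.3 and 51.8 CPM. Both EGCG libraries thus lay below both vehicle libraries. The ratio was 0.818 in replicate 1 (95% counting interval 0.762 to 0.877) and 0.845 in replicate 2 (0.799 to 0.893). These intervals compare single libraries and leave out the variation between cultures. Group levels were 57.7 ± 5.16 CPM in vehicle and 48.0 ± 5.39 in EGCG (SD, n = 2 each). In edgeR, the log2 fold change was -0.26 with a standard error of 0.16 and an unadjusted p of 0.166, and the 95% interval of the fold was 0.615 to 1.13. Without EGCG replicate 1 the log2 fold change was -0.16. The difference therefore did not pass the test, although its sign was the same in both replicates. In an alternative edgeR fit that takes the replicate as a block, Igf1r was the member with an unadjusted p under 0.05 (0.00585, adjusted p = 0.995), a level that 3.21% of all genes reached there.

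Igf2r did not follow Igf1r. The gene (ENSMUSG00000023830, chromosome 17, 12682406 to 12769664) was at 97.6 and 104 CPM in Vehicle and EGCG replicate 1 and at 70.7 and 70.1 CPM in Vehicle and EGCG replicate 2. It was thus higher in replicate 1 under either treatment, and the groups overlapped. Its log2 fold change in edgeR was 0.05 (standard error 0.29, unadjusted p = 0.868). Per length, Igf2r RNA was 3.26 and 4.26 times as abundant as Igf1r RNA in Vehicle and EGCG replicate 1, and 2.08 and 2.44 times in Vehicle and EGCG replicate 2. The antisense RNA Airn, which overlaps Igf2r and is known for silencing its paternal copy, had between 7 and 22 counts per library. Insr, the gene of the closely related insulin receptor and not a member, was 1.21 to 1.57 times as abundant per length as Igf1r in the 4 libraries.

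The most abundant binding protein gene was Igfbp4, whose product generally restrains IGF action until the protease encoded by Pappa cleaves it. Igfbp4 (ENSMUSG00000017493, chromosome 11, 99041244 to 99054392) was at 143 and 134 CPM in Vehicle and EGCG replicate 1, and at 165 and 184 CPM in Vehicle and EGCG replicate 2. It was slightly lower with EGCG in replicate 1 (ratio 0.937, counting interval 0.899 to 0.977) and slightly higher in replicate 2 (1.11, 1.08 to 1.15). Its log2 fold change was 0.05 in edgeR (standard error 0.22, unadjusted p = 0.845), and the 95% interval of the fold, 0.679 to 1.57, was the narrowest among the binding proteins.

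Igfbp5 and Igfbp2 differed between the replicates much more than between treatments. IGFBP-5 binds extracellular matrix as well as IGFs, and IGFBP-2 is abundant in the developing brain. Igfbp5 (ENSMUSG00000026185, chromosome 1, 72857932 to 72874884) was at 175 and 172 CPM in Vehicle and EGCG replicate 1 but at 45.1 and 56.5 CPM in Vehicle and EGCG replicate 2. Replicate 2 was thus at 0.257 of replicate 1 in vehicle and at 0.329 in EGCG. Igfbp2 (ENSMUSG00000039323, chromosome 1, 72824503 to 72852474) showed the same order, with 288 and 258 counts in Vehicle and EGCG replicate 1 (8.78 and 8.05 CPM) and 80 and 169 in Vehicle and EGCG replicate 2 (2.18 and 3.06 CPM). For this gene replicate 2 was at 0.249 of replicate 1 in vehicle and at 0.380 in EGCG. The 2 genes are neighbours that face each other on opposite strands, with 5457 bases between their ends. Both differed little with EGCG in replicate 1, at ratios of 0.982 for Igfbp5 (counting interval 0.946 to 1.02) and 0.917 for Igfbp2 (0.772 to 1.09). In replicate 2 both were higher with EGCG, at ratios of 1.25 (1.18 to 1.33) and 1.40 (1.07 to 1.85). The log2 fold changes over both replicates were 0.05 ± 0.88 for Igfbp5 and 0.02 ± 0.87 for Igfbp2 (standard errors of the edgeR fit), with unadjusted p of 0.955 and 0.984. Because the replicates lay so far apart, the 95% interval of the fold was 0.188 to 5.74 for Igfbp5. Differences of several fold in either direction were thus not detectable in this fit, which has no term for the replicate. With the replicate as a block, the edgeR log2 fold change was 0.14 for Igfbp5 (unadjusted p = 0.175). For Igfbp2 it was 0.16 in that fit (unadjusted p = 0.438).

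As a result, the make-up of the binding protein RNA differed by replicate. Igfbp4 accounted for 43.8% and 47.5% of the summed TPM of the 6 genes in Vehicle and EGCG replicate 1, and for 73.8% and 72.8% in Vehicle and EGCG replicate 2. Igfbp5 accounted for 39.4% and 44.7% in replicate 1 and for 14.8% and 16.4% in replicate 2, in the same order. The summed level of the 6 genes varied less, between 149.7 and 198 TPM. Each replicate was deposited as a table of its own, and the cause of the difference between them was not tested.

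**Figure D3:**
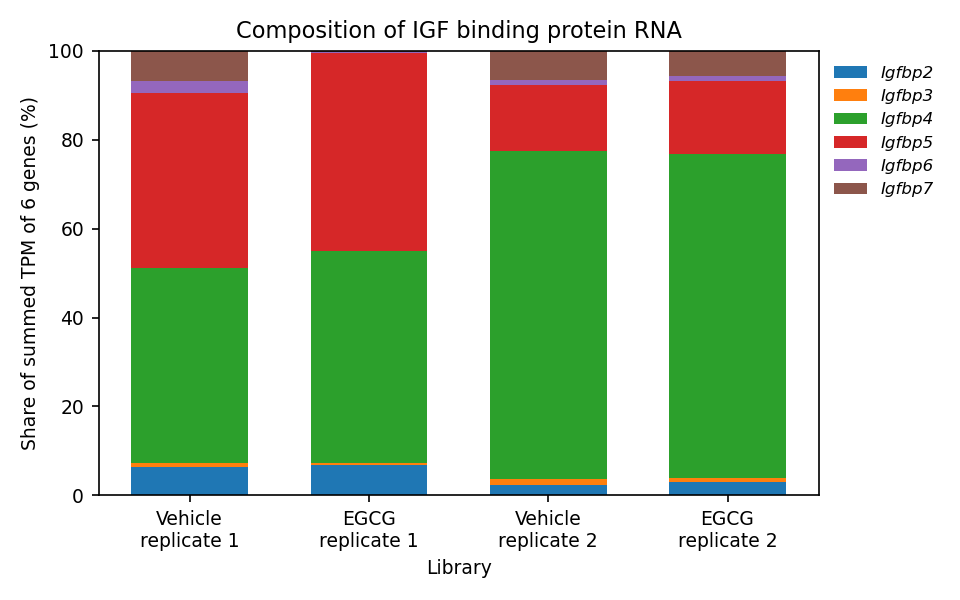
Share of each binding protein gene in the summed TPM of the 6 genes, in percent, with 1 stacked bar per library. Igfbp4 and Igfbp5 made up similar shares in both libraries of replicate 1, Igfbp4 alone made up over 70% in both libraries of replicate 2, and Igfbp6 and Igfbp7 made up 0.131% and 0.322% in EGCG replicate 1.

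Igfbp6 and Igfbp7 were low in a single library. IGFBP-6 binds IGF-2 in preference to IGF-1, and IGFBP-7 is a distant relative with low affinity for IGFs that is typical of vascular and stromal cells. Igfbp7 (ENSMUSG00000036256, chromosome 5, 77349240 to 77408041) had 199 counts with vehicle and 8 with EGCG in replicate 1, at 6.06 and 0.250 CPM, and 146 and 214 counts in replicate 2, at 3.98 and 3.88 CPM. Igfbp6 (ENSMUSG00000023046, chromosome 15, 102144362 to 102149511) had 74 and 3 counts in replicate 1, at 2.26 and 0.0936 CPM, and 24 and 44 counts in replicate 2, at 0.655 and 0.798 CPM. For both genes Vehicle replicate 1 was the highest library and EGCG replicate 1 by far the lowest, while the libraries of replicate 2 were close to each other. The groups overlapped for Igfbp6 and were barely separate for Igfbp7. The ratio of EGCG to vehicle in replicate 1 was 0.0412 for Igfbp7 (95% counting interval 0.0175 to 0.0827) and 0.0415 for Igfbp6 (0.00837 to 0.126). In replicate 2 it was 0.974 (0.785 to 1.21) and 1.22 (0.725 to 2.09).

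Over both replicates, the edgeR log2 fold change was -1.27 for Igfbp7 (standard error 1.27, unadjusted p = 0.375) and -1.67 for Igfbp6 (standard error 1.24, unadjusted p = 0.251). Without EGCG replicate 2, which leaves EGCG replicate 1 as the lone treated library, the values became -4.34 with an unadjusted p of 0.00492 and -3.93 with an unadjusted p of 0.0494 in edgeR. The adjusted p stayed at 1.00 for both. Without EGCG replicate 1, the values were -0.38 for Igfbp7 and -0.87 for Igfbp6, with unadjusted p of 0.553 and 0.478. In replicate 1, 5.45% of all genes tested were lower with EGCG by over 1 log2 unit. Igfbp7 overlaps the RNA polymerase gene Polr2b on the opposite strand. Polr2b had between 1906 and 3142 counts per library, whereas Igfbp7 had 8 in EGCG replicate 1, so at most these 8 counts there could be reads of Polr2b.

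Most stromal markers and part of the mural markers moved with these genes in replicate 1. Of 12 stromal markers, 10 were lower in EGCG than in vehicle by over 1 log2 unit in replicate 1 and 0 were in replicate 2. The matrix genes Col1a1, Col1a2, Col3a1 and Dcn had 2 to 6 counts in EGCG replicate 1 against 788 to 4469 in Vehicle replicate 1. Postn, the most abundant gene of the list, did not take part, with 253 and 254 CPM in Vehicle and EGCG replicate 1. None of the 12 was at 0 in all libraries, and the summed level was 347 to 754 CPM in vehicle and 268 to 362 CPM in EGCG. The 6 mural markers, led by Tagln and Acta2 of contractile cells, summed to 32.0 and 1.09 CPM in Vehicle and EGCG replicate 1. In Vehicle and EGCG replicate 2 they summed to 6.30 and 11.9 CPM. Of the 6, 3 were lower by over 1 log2 unit in replicate 1 (Tagln, Acta2 and Cnn1). Myh11 had 3 and 4 counts in Vehicle and EGCG replicate 1, Rgs5 had 1 and 0, and Kcnj8 was at 0 throughout. The part of these cells in the values of Igfbp6 and Igfbp7 was not tested. Igfbp7 RNA was 2.47 and 2.45 times as abundant per length as Igfbp6 RNA in Vehicle and EGCG replicate 1, the latter on 8 and 3 counts, and 5.60 and 4.47 times in Vehicle and EGCG replicate 2.

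**Figure D4:**
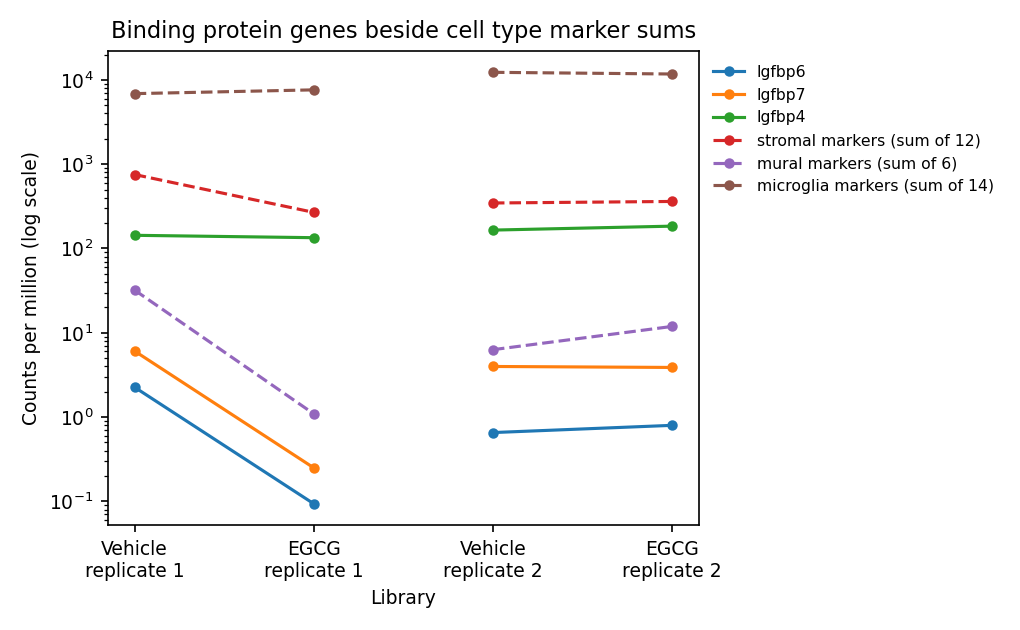
Level in CPM (log axis) of Igfbp6, Igfbp7 and Igfbp4 (solid lines) and summed level of stromal, mural and microglia marker genes (dashed lines) in each library, with lines joining vehicle to EGCG within a replicate. Igfbp6, Igfbp7 and the mural sum were far below vehicle in EGCG replicate 1 and not in EGCG replicate 2, while Igfbp4 and the microglia sum stayed near their vehicle level in both replicates.

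Part of the astrocyte markers were also lower in EGCG replicate 1. The 10 astrocyte markers, most abundantly Aldh1l1 and Aldoc, summed to 14.4 to 22.9 CPM in vehicle and 15.4 to 17.0 CPM in EGCG, a sum carried largely by Aldh1l1 (339 and 383 counts in Vehicle and EGCG replicate 1). Of the 10, 8 were lower in EGCG in replicate 1, among them S100b with 1 and 0 counts. By over 1 log2 unit, 4 were lower (Gja1, Aqp4, Gfap and Sox9), beside 5.45% of all genes tested, and 0 were in replicate 2. Aqp4, Gfap and Sox9 were scarce, with 12 to 20 counts in Vehicle replicate 1. Gja1, a gap junction gene, had 160 counts with vehicle and 1 with EGCG in replicate 1. The part of astrocytes in the values of Igfbp6 and Igfbp7 was not tested. The 8 oligodendrocyte lineage markers, led by Mbp and Cspg4, summed to 118 to 156 CPM in vehicle and 119 to 154 CPM in EGCG. The 7 endothelial markers, led by Flt1 and Pecam1 and with Cldn5 at 0, summed to 73.2 to 183 CPM in vehicle and 81.5 to 181 CPM in EGCG. This sum was carried by Flt1, which was higher in replicate 1, as Igfbp2 and Igfbp5 were, at 175 CPM in either library against 53.3 and 64.9 CPM in replicate 2. Pecam1 ran the other way, with 2 and 3 counts in Vehicle and EGCG replicate 1 and 580 and 741 in replicate 2. Of the 7, 3 were lower with EGCG by over 1 log2 unit in replicate 1, namely Cdh5, Esam and Tek, and 1 in replicate 2. Cdh5 had 79 and 26 counts in Vehicle and EGCG replicate 1 and 34 and 13 in replicate 2. Esam had 9 and 3 counts and Tek 3 and 0 in Vehicle and EGCG replicate 1. The 4 neuronal markers, of which Snap25 and Tubb3 were the most abundant, summed to 17.5 and 16.7 CPM in Vehicle and EGCG replicate 1. In replicate 2 they summed to 0.791 and 1.14 CPM. Snap25 made up nearly all of the sum in replicate 1, at 17.2 and 16.4 CPM, where Tubb3 had 5 and 0 counts. The 4 choroid plexus markers, led by Folr1 and Clic6 and with Kl at 0, summed to 4.60 and 4.21 CPM in replicate 1 and to 0.655 and 0.743 CPM in replicate 2. The part of any of these cells in the difference of Igfbp2 and Igfbp5 between replicates was not tested.

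Igfbp3, the main IGF carrier of blood plasma, was scarce. The gene (ENSMUSG00000020427, chromosome 11, 7206086 to 7213923) had 66 and 36 counts in Vehicle and EGCG replicate 1 and 80 and 98 in Vehicle and EGCG replicate 2, at 2.01, 1.12, 2.18 and 1.78 CPM. Both EGCG libraries were below both vehicle libraries. The ratio was 0.559 in replicate 1 (counting interval 0.361 to 0.851) and 0.814 in replicate 2 (0.600 to 1.11), the latter within counting error of no difference. The edgeR log2 fold change was -0.53 (standard error 0.43, unadjusted p = 0.287), and the 95% interval of the fold was 0.302 to 1.59.

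To see which genes resembled the members across the 4 libraries, log2 CPM profiles were centred on their means and compared by the root mean square difference. The 5 genes closest to Igf1 were Strbp (0.00909 on the log2 scale), Dnajc15, Icam1, Oxsm and Ubox5 (0.0301), of which the adhesion gene Icam1 was the most abundant with a mean of 114 TPM. For Igfbp7, one of the 2 members with the widest range, they were Col4a2, Nr2f2, Amotl2, Col4a1 and Pdlim1, at 0.0830 to 0.167. Col4a1 and Col4a2 encode the chains of basement membrane collagen IV. For Igfbp6 they were Npr2, Kirrel, Mcc, Dbn1 and Zic2, at 0.0244 to 0.142. With only 4 libraries, many of 13811 genes will lie close to any profile, and likeness of this kind is a description.

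Genes that act around the IGF system were read from the same fit. Of 48 such genes, 40 were tested, and 0 reached an unadjusted p under 0.05, both in the edgeR test and in that of DESeq2 without a block. Their median log2 fold change was 0.01, against 0.01 over all genes, with 22 estimates above 0 and 18 below. The other carriers were near or at 0, since Igfbp1 had no counts and Igfals and Igfbpl1 had 1 each over the 4 libraries. The 5 genes of proteases that cleave the binding proteins and of their inhibitors, with a median log2 fold change of -0.76, were also scarce, and the most abundant, the serine protease gene Htra1, averaged 0.933 TPM. Pappa had 33 counts with vehicle and 0 with EGCG in replicate 1, and 5 and 12 in replicate 2, and its unadjusted p was 0.269.

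Genes that relay receptor signals inside the cell were mostly more abundant. The most abundant of each group were Mapk3 of the ERK route (345 TPM on average), the adaptor gene Grb2 (281 TPM), Akt1 (211 TPM), Foxo3 (31.7 TPM), Igf2bp3, which encodes an RNA binding protein (29.1 TPM), and Insr (12.2 TPM). The 15 genes of the PI3K, AKT and mTOR group had log2 fold changes between -0.06 and 0.11, the 5 of the RAS and ERK group between -0.04 and 0.19, and the 3 FOXO genes between -0.01 and 0.02. The 7 tested adaptors and brakes of the receptors ranged more widely, from -1.28 to 0.01, and were not all abundant, since Irs1 and Grb10 averaged 0.132 and 0.679 TPM. Irs1 had the smallest unadjusted p of the whole list (0.228 in edgeR), with 31 counts with vehicle and 5 with EGCG in replicate 1, and 11 and 19 in replicate 2. The next genes by p after Irs1 and Pappa were Hras (0.382), Irs2 (0.415) and Grb10 (0.481). Of these, Irs2, which couples the IGF-1 and insulin receptors to PI3K, was lower in EGCG in both replicates, by differences of -0.27 and -0.19. Hras was higher in both, by 0.21 and 0.17. Grb10, an imprinted inhibitor of the IGF-1 and insulin receptors, differed by -1.28 in replicate 1 and 0.58 in replicate 2.

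**Figure D5:**
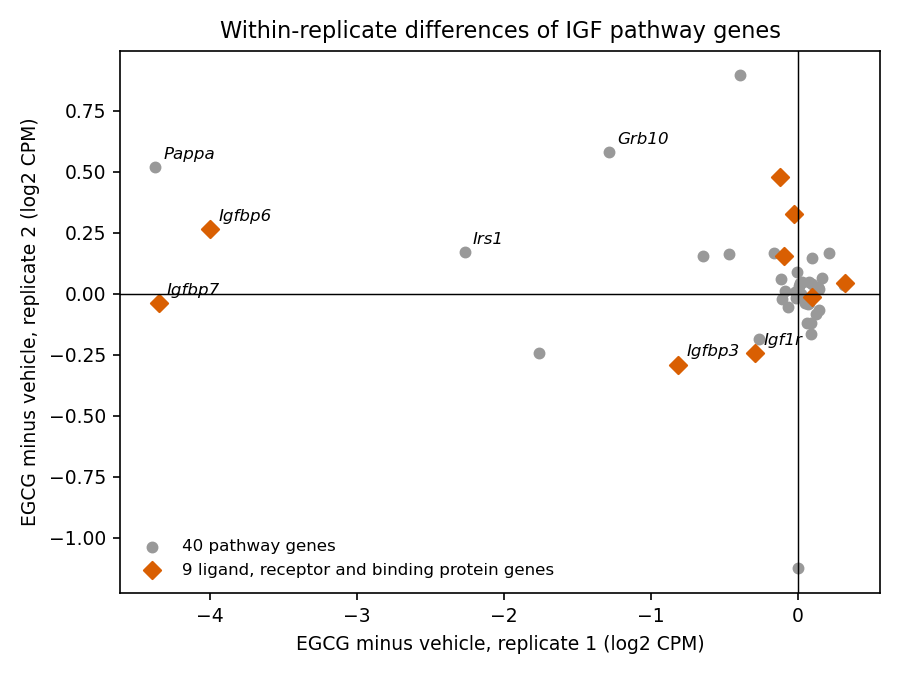
Difference between EGCG and vehicle in log2 CPM within replicate 1 (horizontal) and replicate 2 (vertical) for the 40 tested genes around the IGF system (grey circles) and the 9 tested members (orange diamonds). Most genes lay near the origin. Igfbp6, Igfbp7, Pappa, Irs1 and Grb10 lay far to the left, that is, EGCG was well below vehicle in replicate 1. So did Stc2, an unlabelled gene of the protease and inhibitor group, at -1.76 on 4 and 0 counts. Igf1r and Igfbp3 lay below 0 on both axes, whose scales differ.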

How the data were processed

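RNA of 4 libraries of primary mouse microglia was analysed, 2 treated with 1 µM EGCG and 2 with vehicle for 24 h. Per the labels and the methods of the study, libraries were directional and poly-A selected, and paired-end reads were cleaned of adapters and poor bases. The submitters' processing notes name HISAT2 and GRCm38.p6. What the authors deposited are unnormalised counts for each gene, in 1 table per replicate. The counting program, its strand setting and the annotation release are not given in the sources used here, so reads of overlapping genes may be split unevenly. Gene length is a column of the deposited tables and was used only for TPM. Treatment groups came from the sample titles, and the submission sheet of the study ties each table to its replicate.

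The tables were joined on Ensembl identifiers (54532 genes), leaving out 697 and 329 separately assembled loci. Protein-coding genes with at least 10 counts over the 4 libraries (13811) were tested in R 4.3.3 with edgeR 4.0.16 (TMM, quasi-likelihood F test with default options, treatment only, Benjamini-Hochberg adjustment). DESeq2 1.42.0 was an alternative. Per-library log2 values used a prior count of 2. Intervals of ratios are exact binomial intervals (95%), and they and the floor of 3 counts cover counting error only. The fits were tested on simulated data with the same dispersion for every gene. That checked the code and does not show how the fits perform on these libraries. Members and lists were chosen with earlier results of these data known. The text names all 10 members, the 5 pathway genes with the smallest p (none passed 0.05), the most abundant gene of each pathway group, the 2 most abundant of each marker list, overlapping genes and the closest profiles. Other genes were named after their values were seen, and so were the promoter motifs. Alternatives covered the test, normalization, filter, gene classes, leaving out each library and the replicate block. The secreted protein array, phagocytosis, nitrite and imaging measurements of the study were not analysed here.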

Additional observations from a re-analysis of the deposited data

How the results depend on the processing

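No member passed an adjusted p under 0.1 in any alternative, and depth limited Igf2, Igfbp3 and Igfbp6, with under 100 counts in each library. The replicate numbers name biological replicates but are not said to mark a shared culture. Across the 13811 genes, the difference between replicates in vehicle correlated with that in EGCG (Pearson r = 0.64 over genes, which are no independent replicates). With the replicate block, edgeR gave 444 genes at an unadjusted p under 0.05 (293 higher, 151 lower) in place of 16 (4 higher, 12 lower), 1 with an adjusted p under 0.1, 1 of the members, Igf1r (log2 fold change -0.27, unadjusted p = 0.00585), and 2 of the pathway genes, Hras and Irs2. DESeq2 with the replicate block gave 153 genes (92 higher, 61 lower), 7 with an adjusted p under 0.1, 2 members, Igf1r (-0.27, unadjusted p = 0.0240) and Igf1 (0.18, unadjusted p = 0.0237), and a pathway median of 0.0018. These shares of members compare with 3.21% and 1.11% of all genes.

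Without the block, DESeq2 gave 20 lower genes and 1 with an adjusted p under 0.1, and the other dispersion setting of edgeR gave 38 genes (7 higher, 31 lower). Upper-quartile factors and no filter each gave 2 higher genes, 10 counts in every library gave 3 genes (2 higher, 1 lower), and genes of all biotypes gave 35 (10 higher, 25 lower). The median of the members, 0.02, became -0.12 without a filter, where Igf2 enters. The pathway median of 0.0083 was 0.0015 with DESeq2, 0.0014 with its size factors in edgeR, -0.0094 with upper-quartile factors, -0.023 with total counts only, 0.00063 without a filter and 0.0012 with 10 counts in every library. Igfbp2 turned to -0.019 with upper-quartile factors, -0.021 with total counts only and -0.0021 with 10 counts in every library. The cause of these differences was not tested.

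With each library left out in turn, the other library of its arm is assumed to vary like the rest. The count of genes then ranged from 8 to 131 (higher 3 to 13, lower 3 to 128), members at an unadjusted p under 0.05 from 0 to 2, the median of the members from -0.48 to -0.11 and that of the pathway genes from -0.13 to 0.065. The most genes, 131, came without EGCG replicate 2 and the fewest without EGCG replicate 1. Directions turned for Igf1 (-0.11 to 0.48), Igf2r (-0.27 to 0.30), Igfbp2 (-0.84 to 1.35), Igfbp4 (-0.23 to 0.25) and Igfbp5 (-0.96 to 1.34). They did not for Igf1r (-0.41 to -0.16), Igfbp3 (-0.93 to -0.24), Igfbp6 (-3.93 to -0.52) and Igfbp7 (-4.34 to -0.38). Each of these fits keeps at least 1 library of replicate 1, so a constant sign does not show that the replicates were alike. Within replicate 2, the ratio of EGCG to vehicle was 1.22 for Igfbp6 and 0.974 for Igfbp7.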
